A study of Homo sapiens with 12 samples.

Results

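At day 4 after transduction, RNA counts of 45 repeat elements were compared between THP-1 cells carrying SETDB1 sgRNA 9 and THP-1 cells carrying a non-targeting sgRNA, with 3 libraries in each arm. These 6 libraries were all those that the titles place at day 4, of 12 in the series, and the other 6 were collected at day 7. THP-1 is an established human cell line of monocytic type, from an acute myeloid leukaemia. Both arms were transduced, held under 1 µg/ml puromycin, which was added 48 h after transduction, and sequenced from total RNA with a stranded kit. Each element had a plus and a minus count, treated here as separate values, which made 90 features. A single SETDB1 guide was set against the non-targeting guide, so the action of this guide and loss of SETDB1 in general cannot be told apart. The series title asks whether both strands of transposable elements are transcribed once SETDB1 is depleted. A search for 15 genes, SETDB1 and myeloid, lymphoid and erythroid markers, gave 0 matches in the tables. Neither the targeting of SETDB1 nor the identity of the cells was therefore checked.

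SETDB1 is a histone methyltransferase that places H3 lysine 9 trimethylation. KRAB zinc finger proteins bind repeat sequences and recruit it through TRIM28, and it is known for holding endogenous retroviruses and other repeats silent, in leukaemia cells among others. RNA from both strands of a repeat can pair into double-stranded RNA, which cytosolic sensors recognise. Satellites are tandem arrays, many of them at centromeres. Long terminal repeats (LTRs) flank the internal part of an endogenous retrovirus and hold its promoter. LINE L1 retrotransposons carry a promoter in the 5′ end, a second open reading frame (ORF2) for endonuclease and reverse transcriptase, and a 3′ end that most genomic copies keep.

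The table totals were 47030, 45911 and 58916 counts in the SETDB1 sgRNA 9 libraries, against 35293, 28763 and 27705 counts in the non-targeting libraries. All 3 SETDB1 totals lay above all 3 non-targeting ones. They averaged 50619 ± 7207 and 30587 ± 4110 counts (SD, n = 3 each), 1.65 times more in the SETDB1 arm (exact permutation test, two-sided, p = 0.1, which no 3 against 3 comparison can go below). The ratio was 1.52 with L1P1_orf2 left out and 1.63 with SST1 and ALR left out. Whether the repeats gained RNA as a whole or the SETDB1 libraries were read more deeply cannot be told apart, because full library depths were not given in the sources used here. Levels are therefore given as counts, and as normalised counts (CPM, scaled to the table's own total with TMM factors), and a change in CPM is a change relative to the other repeats. In bulk RNA, a change in the RNA made per cell and a change in the share of cells that make it cannot be told apart. The libraries within an arm also differed, and SETDB1 replicate 1 held the lowest minus strand share of its arm in 24 of 39 elements. Among the non-targeting libraries, replicate 2 held 36.1% of its counts in L1 3′ ends, against 42.5% in replicate 1 and 43.7% in replicate 3.

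The largest scaled changes were rises in 2 satellites, SST1 on the plus strand and ALR on the minus strand. Among the rises called by the test below, LTR60 plus strand, LTR4 minus strand, ALR plus strand, L1PBa_5end plus strand and HERV3 minus strand followed. Of 70 features with enough counts to be tested, 17 were called (24.3% at a Benjamini-Hochberg adjusted p under 0.05 in edgeR's quasi-likelihood test), 11 higher (15.7%) and 6 lower (8.57%). A further 5 made 22 features at an unadjusted p under 0.05. The 35 tested plus strands held 5 higher and 1 lower call with a median log2 change of 0.13. The 35 tested minus strands held 6 higher and 5 lower with a median of -0.13. Over all 70 features the median was 0.04, and 40 features lay above 0. In counts as deposited, with no scaling, 43 of the 70 features (61.4%) were higher in every SETDB1 library than in any non-targeting library and 0 were lower. The ratio of summed counts had a median of 1.58 and ran between 0.796 for MER34C minus strand and 18.4 for SST1 plus strand. An edgeR fit with no scaling called 35 features higher (50% of those tested) and 0 lower, with a median log2 change of 0.65. Without SETDB1 replicate 3 the scaled fit gave 7 higher and 3 lower calls, and without non-targeting replicate 3 it gave 7 higher.

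**Figure D1:**
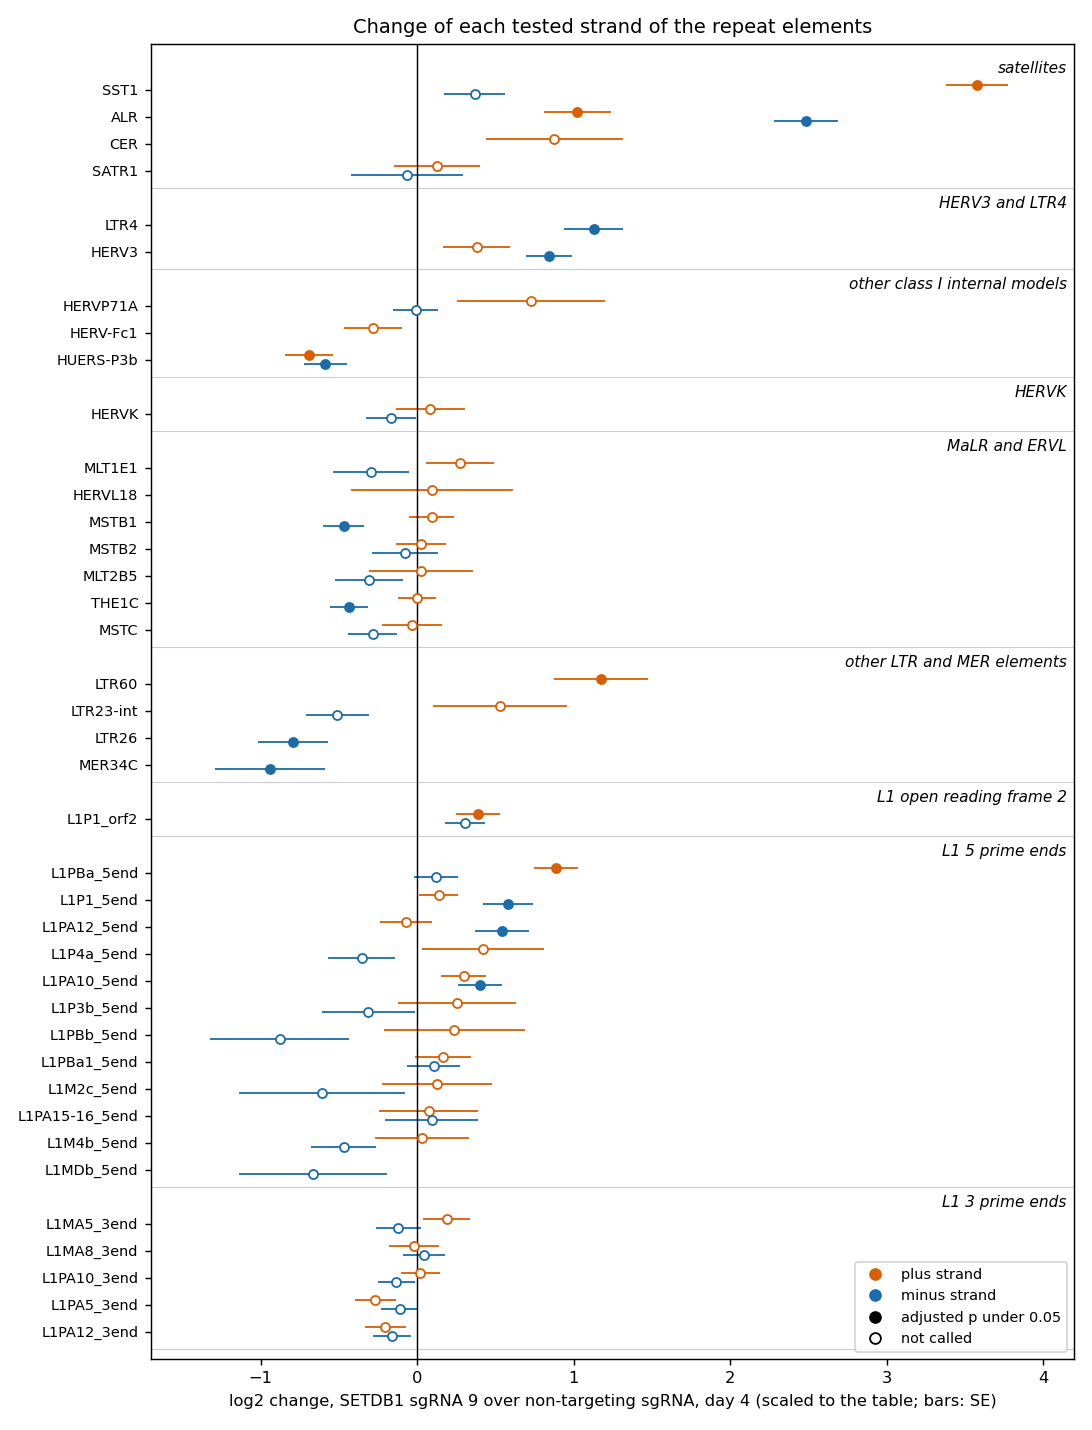
Log2 change (SETDB1 sgRNA 9 over non-targeting, day 4, TMM scaled) of the 70 tested strand features, grouped by element class, with standard errors. SST1 plus strand (3.58) and ALR minus strand (2.49) lie far above the rest, and the MaLR and ERVL minus strands all lie below 0 on this scale, but above 0 without scaling.

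SST1, a tandemly arrayed satellite, changed on the plus strand. Its plus strand had 386, 319 and 418 counts in the SETDB1 sgRNA 9 libraries, against 26, 20 and 15 counts in the non-targeting libraries. The lowest SETDB1 library was above the highest non-targeting library by more than 10 times. In normalised counts this was 7697 ± 166 and 637 ± 124 CPM (SD, n = 3 each), a log2 change of 3.58 ± 0.20 (SE; edgeR adjusted p = 5.20e-17). The minus strand had 142, 105 and 171 counts in SETDB1 libraries, against 68, 90 and 51 counts in non-targeting libraries. These counts did not overlap either, but relative to the table they missed the threshold (0.37 ± 0.19; edgeR adjusted p = 0.185). SST1 thus had more minus than plus counts in each non-targeting library and more plus than minus counts in each SETDB1 library.

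ALR, the alpha satellite of human centromeres, was the only element of the 31 with both strands tested that was called higher on both (3.23%). The minus strand had 174, 202 and 254 counts in SETDB1 libraries, against 25, 19 and 29 counts in non-targeting libraries. The plus strand had 175, 174 and 272 counts in SETDB1 libraries, against 81, 55 and 62 counts in non-targeting libraries. Neither strand overlapped between the arms, and the minus strand reached about the plus strand's count in the SETDB1 libraries. The log2 change was 2.49 ± 0.20 on the minus strand (4329 ± 676 and 773 ± 183 CPM; SD, n = 3 each; edgeR adjusted p = 2.54e-12). It was 1.02 ± 0.21 on the plus strand (4224 ± 696 and 2075 ± 271 CPM; edgeR adjusted p = 0.000422).

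The other satellites were low in counts. CER plus strand had 29, 12 and 13 counts in SETDB1 libraries, against 5, 8 and 6 in non-targeting libraries, and did not pass after scaling (0.88 ± 0.44; edgeR adjusted p = 0.163). SATR1 plus and minus strands had log2 changes of 0.13 and -0.06, and both strands of SATR2 and CER minus strand were too low to be tested. Of the 7 tested satellite features 3 were therefore higher and 0 lower, against 11 higher (15.7%) and 6 lower (8.57%) of all 70, with a median log2 change of 0.88 against 0.04 over all features. All 3 calls were in SST1 and ALR. Satellites took 2.06%, 1.89% and 2.05% of the table in SETDB1 libraries, against 0.70%, 0.81% and 0.70% in non-targeting libraries (two-sided exact permutation p = 0.1, adjusted p = 0.129 over 9 classes). Their summed counts were 4.51 times higher with SETDB1 sgRNA 9. The shares of every other class except the L1 3′ and 5′ ends also did not overlap, with the same p-values. HERV3 with LTR4 and L1 ORF2 likewise took a higher share with SETDB1 sgRNA 9. HERVK, MaLR and ERVL, the other class I models and the other LTR and MER elements took a lower one.

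**Figure D2:**
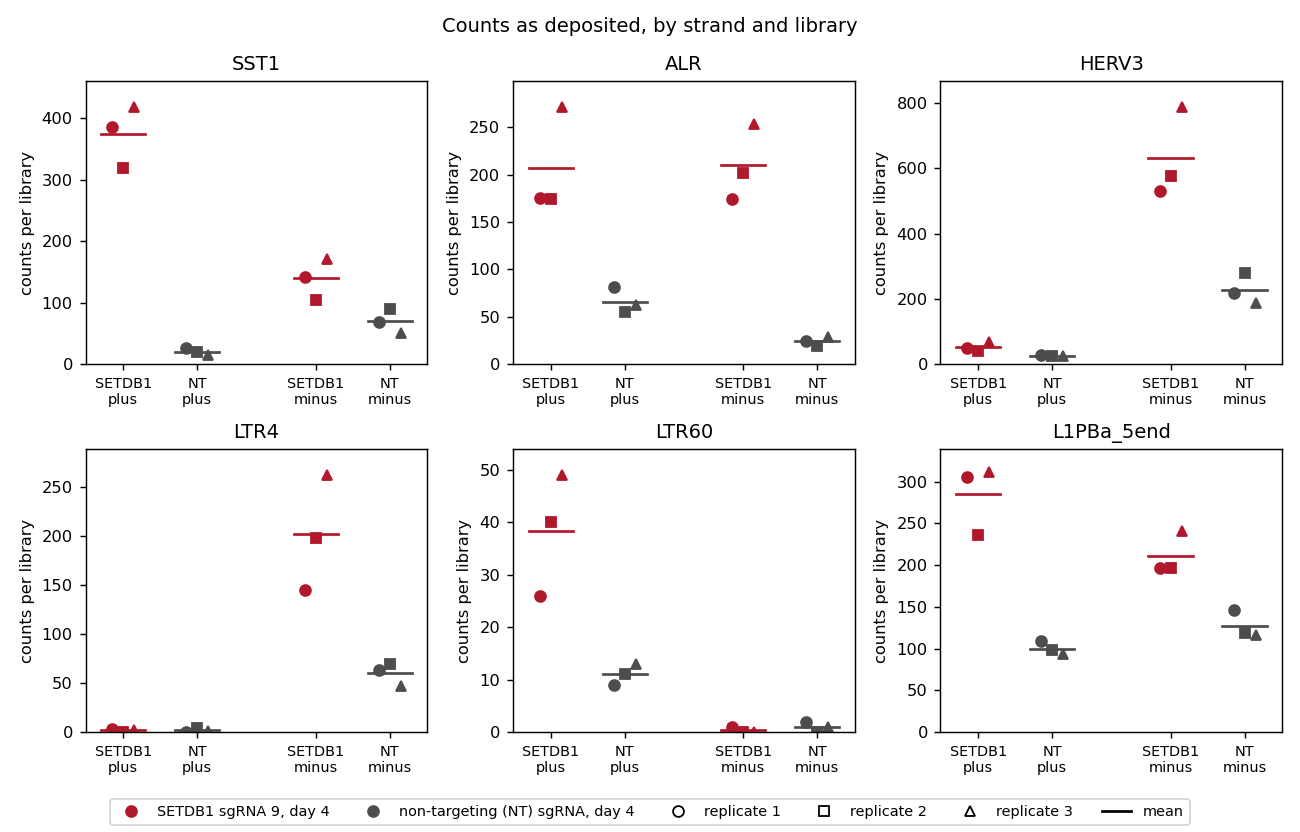
Counts per library, as deposited and unscaled, of both strands of SST1, ALR, HERV3, LTR4, LTR60 and L1PBa_5end at day 4, with SETDB1 sgRNA 9 libraries left of non-targeting (NT) libraries and a line at each mean. SST1 plus strand lies between 319 and 418 counts with SETDB1 sgRNA 9 and between 15 and 26 with the non-targeting sgRNA, and LTR4 plus and LTR60 minus strands are near 0 in both arms.

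HERV3, a class I endogenous retrovirus, and LTR4, the LTR that flanks it, were called higher on the minus strand. HERV3 minus strand had 530, 577 and 788 counts in SETDB1 libraries, against 218, 278 and 188 counts in non-targeting libraries. LTR4 minus strand had 145, 198 and 262 counts in SETDB1 libraries, against 63, 70 and 47 counts in non-targeting libraries. The arms did not overlap for either element. The log2 changes were 0.84 ± 0.15 for HERV3 (12970 ± 1883 and 7238 ± 1599 CPM; SD, n = 3 each; edgeR adjusted p = 3.31e-05) and 1.13 ± 0.19 for LTR4 (4149 ± 1028 and 1897 ± 358 CPM; edgeR adjusted p = 1.77e-05). HERV3 plus strand was much lower in counts, at 49, 41 and 67 in SETDB1 libraries against 27, 26 and 25 in non-targeting libraries, and did not pass after scaling (0.38 ± 0.21; edgeR adjusted p = 0.215). The HERV3 plus strand arms nevertheless did not overlap in counts or CPM. LTR4 plus strand never exceeded 4 counts and was not tested. A difference in response between the strands was not shown for either element. The log2 odds change in minus strand share was 0.47 ± 0.24 for HERV3 and 1.69 ± 0.96 for LTR4 (edgeR adjusted p = 0.200 each). The HERV3 shares nevertheless stood narrowly apart, at 91.5%, 93.4% and 92.2% in SETDB1 libraries against 89.0%, 91.4% and 88.3% in non-targeting libraries. The ratio of LTR4 to HERV3 minus counts within a library was 0.274, 0.343 and 0.332 with SETDB1 sgRNA 9, against 0.289, 0.252 and 0.250 with the non-targeting sgRNA. These ratios overlapped (two-sided exact permutation p = 0.2, adjusted p = 0.4 over 8 within-library ratios). HERV3 and LTR4 together took 1.74% ± 0.18 and 1.04% ± 0.24 of the table (SD, n = 3 each), and their summed counts differed 2.81-fold.

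Of 5 tested features of other class I internal models and 2 of HERVK, 0 were called higher, against 11 (15.7%) of all 70. HUERS-P3b, a class I internal model, was the only element called lower on both strands. Its plus strand had 268, 245 and 253 counts in SETDB1 libraries, against 257, 314 and 238 counts in non-targeting libraries. Its minus strand had 281, 266 and 289 counts in SETDB1 libraries, against 295, 260 and 266 counts in non-targeting libraries. Both strands overlapped in counts, while the scaled log2 changes were -0.69 ± 0.15 and -0.59 ± 0.14 (edgeR adjusted p = 0.000703 and 0.00131). Without scaling they were -0.08 and 0.03 and were not called. HERVP71A, also class I, had 365, 396 and 387 minus strand counts in SETDB1 libraries, against 276, 232 and 252 in non-targeting libraries. These counts therefore did not overlap, but the scaled change of -0.01 ± 0.14 was close to 0 and its sign turned with the scaling. HERVP71A plus strand had 23, 10 and 13 counts in SETDB1 libraries, against 9, 6 and 3 in non-targeting libraries. These did not overlap either, and the scaled change was not called (0.73 ± 0.47; edgeR adjusted p = 0.311). HERV-Fc1 had plus strand counts only, 86, 86 and 69 in SETDB1 libraries against 57, 73 and 62 in non-targeting libraries (log2 change -0.28 ± 0.19; edgeR adjusted p = 0.321). Its minus strand had 0 of 433 counts at day 4, so that a share as high as 0.693% is still allowed by counting error. HERVK, a class II betaretrovirus-like element, was not called on either strand, with log2 changes of 0.08 ± 0.22 on the plus strand and -0.17 ± 0.16 on the minus strand. Its minus strand had 132, 133 and 165 counts in SETDB1 libraries, against 115, 119 and 81 in non-targeting libraries.

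The MaLR and ERVL elements are LTRs and internal parts of an older retrovirus class. Of 7 tested plus strands 6 had a scaled log2 change above 0, and of 6 tested minus strands 0 did, with medians of 0.02 and -0.30, while without scaling all 6 minus strands lay above 0. Over all tested features the medians were 0.13 on the plus and -0.13 on the minus strand, so the whole table leaned in the same direction. The plus strands summed to 1.57 times more counts in SETDB1 libraries and the minus strands to 1.15 times more. THE1C, the MaLR LTR with the most counts, had 1122, 1059 and 1212 minus strand counts in SETDB1 libraries, against 1137, 1058 and 812 in non-targeting libraries. Its plus strand had 1085, 880 and 1283 counts in SETDB1 libraries, against 787, 697 and 621 in non-targeting libraries. The minus strand counts overlapped between the arms and the plus strand counts did not. After scaling, THE1C minus strand was lower (-0.43 ± 0.12; edgeR adjusted p = 0.00619) and its plus strand was at 0.00 ± 0.12 (edgeR adjusted p = 0.991). MSTB1, another MaLR LTR, had 305, 342 and 369 minus strand counts in SETDB1 libraries, against 323, 293 and 304 in non-targeting libraries. Its plus strand had 382, 301 and 412 counts in SETDB1 libraries, against 189, 253 and 220 in non-targeting libraries. MSTB1 followed THE1C, with a scaled change of -0.47 ± 0.13 on the minus strand (edgeR adjusted p = 0.00619) and 0.09 ± 0.14 on the plus strand (edgeR adjusted p = 0.725). With no scaling 5 of the 7 MaLR and ERVL plus strands were called higher, against 23 of 35 over all elements, and 0 of the 6 minus strands, against 12 of 35. THE1C and MSTB1 minus strands then lay at 0.17 and 0.14 without a call. Without SETDB1 replicate 3 neither passed (-0.39 for THE1C and -0.44 for MSTB1), and without non-targeting replicate 2 THE1C did not (-0.36). The other tested members, MSTB2, MSTC, MLT1E1, MLT2B5 and HERVL18 plus strand, were not called after scaling.

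**Figure D3:**
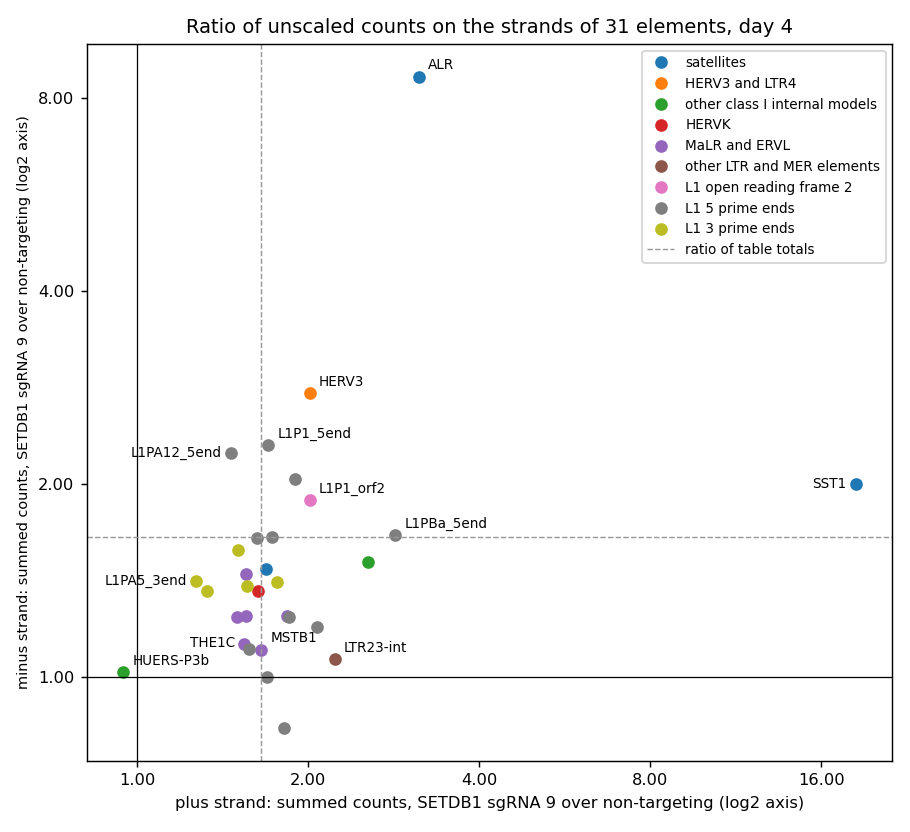
Ratio of summed counts (SETDB1 sgRNA 9 over non-targeting, day 4, unscaled, log2 axes) on the plus strand (x) and the minus strand (y) for the 31 elements with both strands tested; dashed lines mark the ratio of table totals, 1.65. SST1 stands apart along the plus strand axis (18.4) and ALR along the minus strand axis (8.63).

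Among the remaining LTR and MER elements, LTR60 was higher and LTR26 and MER34C were lower. LTR60 plus strand had 26, 40 and 49 counts in SETDB1 libraries, against 9, 11 and 13 in non-targeting libraries (log2 change 1.17 ± 0.30; edgeR adjusted p = 0.00351). LTR26 minus strand had 49, 35 and 35 counts in SETDB1 libraries, against 49, 36 and 50 in non-targeting libraries (-0.80 ± 0.22; edgeR adjusted p = 0.00619). MER34C minus strand had 12, 17 and 14 counts in SETDB1 libraries, against 14, 17 and 23 in non-targeting libraries (-0.94 ± 0.35; edgeR adjusted p = 0.0466). The LTR60 arms did not overlap, while both lower features overlapped in counts and were not called without scaling (-0.18 and -0.33). LTR26 was lost without replicate 3 of the SETDB1 arm (-0.63) or of the non-targeting arm (-0.67). MER34C was lost without SETDB1 replicate 1 (-0.82) or 3 (-0.83) and without non-targeting replicate 2 (-0.97) or 3 (-0.68). LTR23-int minus strand, with the most counts in this class, had 99, 69 and 57 in SETDB1 libraries against 82, 67 and 62 in non-targeting libraries and did not pass (-0.51 ± 0.20; edgeR adjusted p = 0.0616). It was called lower without SETDB1 replicate 1 (-0.75), with table totals (-0.61), with no filter (-0.55) and at a minimum count of 50 (-0.56), and was at -0.27 without SETDB1 replicate 3. The class as a whole had 2.41 times more plus strand counts in SETDB1 libraries and 0.951 times as many minus strand counts.

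L1 elements carried most of the table, and their changes were small beside those of SST1 plus strand and ALR minus strand. L1P1_orf2, the ORF2 model of primate L1, alone took 37.4%, 39.9% and 40.3% of the table in SETDB1 libraries, against 34.2%, 35.2% and 32.5% in non-targeting libraries. Its minus strand had 13299, 15617 and 19599 counts in SETDB1 libraries, against 9742, 8700 and 7208 in non-targeting libraries. Its plus strand had 4292, 2714 and 4137 counts in SETDB1 libraries, against 2323, 1425 and 1789 in non-targeting libraries. Both strands were higher in every SETDB1 library in counts, and their summed counts differed 1.89-fold and 2.01-fold. After scaling the plus strand passed (0.39 ± 0.14; edgeR adjusted p = 0.0402), and the minus strand had 0.31 ± 0.13 (edgeR adjusted p = 0.075). A difference in response between its strands was not shown, with a log2 odds change in minus strand share of -0.09 ± 0.19 (edgeR adjusted p = 0.801). The plus strand call was lost without SETDB1 replicate 1 (0.27) or 3 (0.39) and without non-targeting replicate 2 (0.25) or 3 (0.42). It was also lost in the day 4 libraries alone (0.40), with table totals without TMM (0.29), with no filter (0.34) and at a minimum count of 50 (0.34). The plus strand thus passed under 6 of 14 alternatives. The minus strand was called without SETDB1 replicate 1 (0.43), without non-targeting replicate 2 (0.34), with DESeq2 size factors (0.32) and in DESeq2's Wald test (0.32).

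Of 23 tested features of L1 5′ ends, the part that holds the L1 promoter, 4 were higher and 0 lower, against 11 higher (15.7%) and 6 lower (8.57%) of all 70, so that the higher share was near that of the whole table. Their median log2 change was 0.12. L1PBa_5end, from an older primate L1 group, changed on the plus strand, with 306, 236 and 312 counts in SETDB1 libraries against 109, 98 and 93 in non-targeting libraries. The arms were well apart, at 5850 ± 351 and 3161 ± 37 CPM (SD, n = 3 each), with a log2 change of 0.89 ± 0.14 (edgeR adjusted p = 8.76e-06). L1PBa_5end minus strand had 197, 196 and 241 counts in SETDB1 libraries, against 146, 119 and 116 in non-targeting libraries, and did not pass after scaling (0.12 ± 0.14; edgeR adjusted p = 0.593). The other 3 calls were on the minus strand. L1P1_5end minus strand had 2019, 2709 and 3516 counts in SETDB1 libraries, against 1199, 1525 and 860 in non-targeting libraries (0.58 ± 0.16; edgeR adjusted p = 0.00584). L1PA12_5end minus strand had 160, 205 and 268 counts in SETDB1 libraries, against 99, 112 and 72 in non-targeting libraries (0.54 ± 0.17; edgeR adjusted p = 0.0187). L1PA10_5end minus strand had 573, 710 and 937 counts in SETDB1 libraries, against 379, 408 and 304 in non-targeting libraries (0.40 ± 0.14; edgeR adjusted p = 0.033). For these 3 the arms were apart in counts and overlapped in CPM. Their plus strands were not called, at 0.14 ± 0.12 for L1P1_5end, -0.07 ± 0.16 for L1PA12_5end and 0.30 ± 0.14 for L1PA10_5end. A difference in response between the strands was not shown for any of them. The edgeR adjusted p for the change in minus strand share was 0.0574, 0.0574 and 0.768, in the same order. Each of these 3 calls was lost without SETDB1 replicate 2, SETDB1 replicate 3 or non-targeting replicate 3, with log2 changes between 0.31 and 0.48 there, and those of L1PA10_5end and L1PA12_5end also without non-targeting replicate 1 (0.37 and 0.51). Both of the latter were also lost with table totals without TMM and at a minimum count of 50, and L1PA10_5end with no filter. L1PA10_5end passed under 8 of 15 alternatives, L1PA12_5end under 9 and L1P1_5end under 12.

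The 10 features of L1 3′ ends held 0 calls, against 17 of all 70 (24.3%), with log2 changes between -0.27 and 0.19 and a median of -0.12. The one with the most counts, L1PA5_3end minus strand, had 6778, 6958 and 8583 counts in SETDB1 libraries, against 6267, 4484 and 5030 in non-targeting libraries, a scaled change of -0.11 ± 0.12 (edgeR adjusted p = 0.556). L1 3′ ends took 36.2%, 33.7% and 33.1% of the table in SETDB1 libraries, against 42.5%, 36.1% and 43.7% in non-targeting libraries, which overlapped (two-sided exact permutation p = 0.2). Since 2 L1 groups had a model of each end, the ends could be set against each other within a library, where scaling does not enter. For L1PA10 minus strand the ratio of 5′ to 3′ end counts was 0.420, 0.527 and 0.593 with SETDB1 sgRNA 9, against 0.312, 0.430 and 0.330 with the non-targeting sgRNA. For L1PA12 minus strand it was 0.0982, 0.131 and 0.149 with SETDB1 sgRNA 9, against 0.0704, 0.105 and 0.0608 with the non-targeting sgRNA. In both groups SETDB1 replicate 1 lay below non-targeting replicate 2, so the ratios overlapped (two-sided exact permutation p = 0.2 each, adjusted p = 0.4 over 8 ratios). For L1P1 the ratio of 5′ end to ORF2 counts on the minus strand was 0.168 ± 0.015 in SETDB1 libraries and 0.139 ± 0.031 in non-targeting libraries (SD, n = 3 each; two-sided exact permutation p = 0.3). On the plus strand the L1P1 ratio went the other way, at 0.351 ± 0.023 and 0.430 ± 0.123 in the same order (two-sided exact permutation p = 0.4). Plus strand ratios were 0.460 ± 0.044 and 0.382 ± 0.029 for L1PA10, and 0.147 ± 0.003 and 0.136 ± 0.021 for L1PA12 (two-sided exact permutation p = 0.2 and 0.7). All of these ratios overlapped between the arms.

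**Figure D4:**
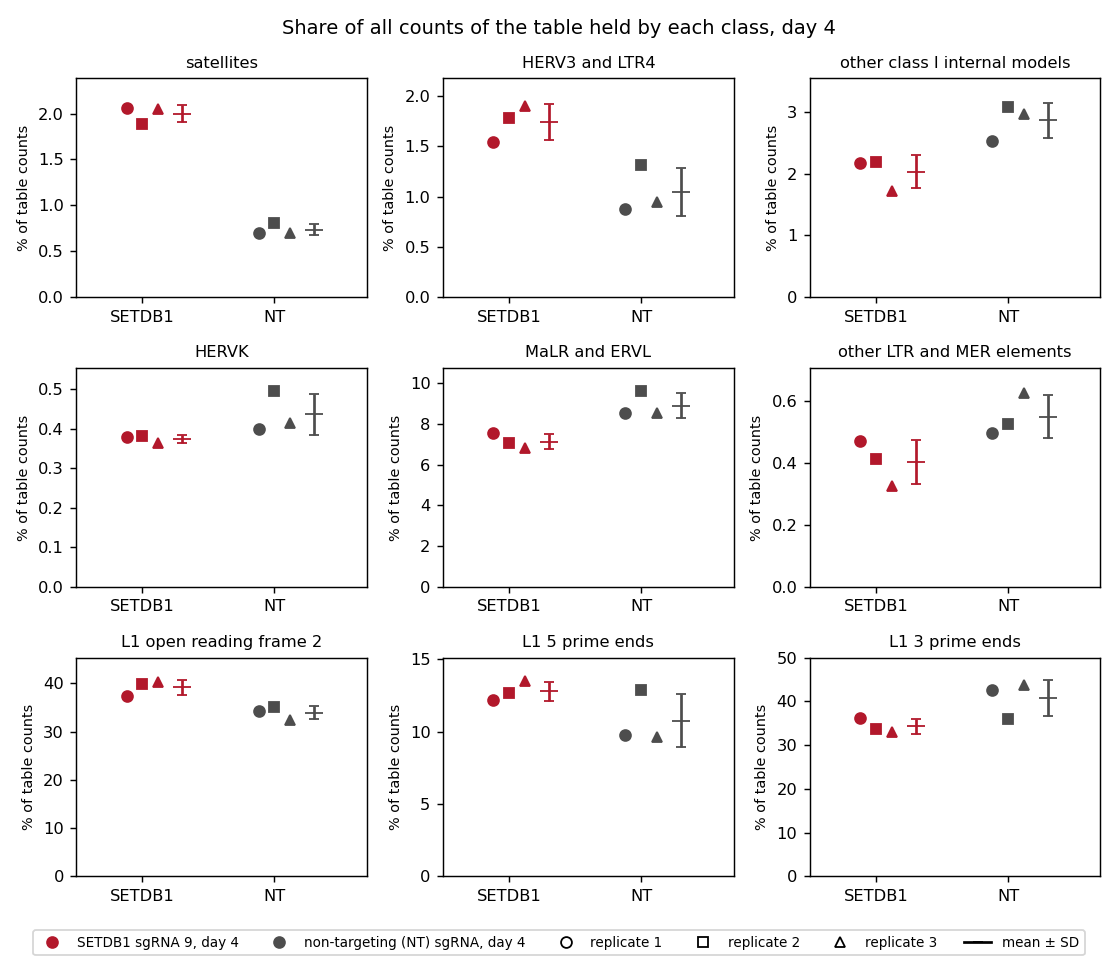
Percent of the table's counts in each element class, both strands added, per library at day 4, with SETDB1 sgRNA 9 left of non-targeting. Satellites are at 1.89% to 2.06% with SETDB1 sgRNA 9 and at 0.70% to 0.81% with the non-targeting sgRNA, and the L1 3′ and 5′ ends overlap between the arms.

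The strand on which an element was counted was compared as its minus strand share, a ratio within each library. It was called for 5 of 39 elements (12.8%), 1 higher (2.56%) and 4 lower (10.3%), with 8 at an unadjusted p under 0.05. The median change over all 39 elements was -0.25 on the log2 odds scale, and 26 of the 39 lay below 0. In SST1 the share was 26.9%, 24.8% and 29.0% with SETDB1 sgRNA 9, against 72.3%, 81.8% and 77.3% with the non-targeting sgRNA. The log2 odds differed by -3.20 ± 0.24 (SE; edgeR adjusted p = 2.08e-20), the widest change of any element tested. In ALR the share was 49.9%, 53.7% and 48.3% with SETDB1 sgRNA 9, against 23.6%, 25.7% and 31.9% with the non-targeting sgRNA. ALR was therefore close to even between the strands in the SETDB1 libraries (log2 odds change 1.46 ± 0.26; edgeR adjusted p = 3.18e-06). In L1PBa_5end the share was 39.2%, 45.4% and 43.6% with SETDB1 sgRNA 9, against 57.3%, 54.8% and 55.5% with the non-targeting sgRNA (-0.77 ± 0.19; edgeR adjusted p = 0.00134). SST1 and L1PBa_5end both had more minus than plus counts in every non-targeting library and fewer in every SETDB1 library. MSTB1 had 44.4%, 53.2% and 47.2% minus counts with SETDB1 sgRNA 9, against 63.1%, 53.7% and 58.0% with the non-targeting sgRNA (-0.58 ± 0.17; edgeR adjusted p = 0.00828). THE1C had 50.8%, 54.6% and 48.6% with SETDB1 sgRNA 9, against 59.1%, 60.3% and 56.7% with the non-targeting sgRNA (-0.43 ± 0.15; edgeR adjusted p = 0.0484). Their shares did not overlap, by a margin of under a percentage point in MSTB1. Both calls were lost with limma and without non-targeting replicate 1 (-0.44 for MSTB1 and -0.42 for THE1C). The THE1C call was also lost without SETDB1 replicate 3 (-0.35) or non-targeting replicate 2 (-0.38) and in a fit of the day 4 libraries alone (-0.43), and passed under 5 of 10 alternatives. Without SETDB1 replicate 1 or non-targeting replicate 2 there were 3 higher elements, and without non-targeting replicate 1 there were 2 lower ones.

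**Figure D5:**
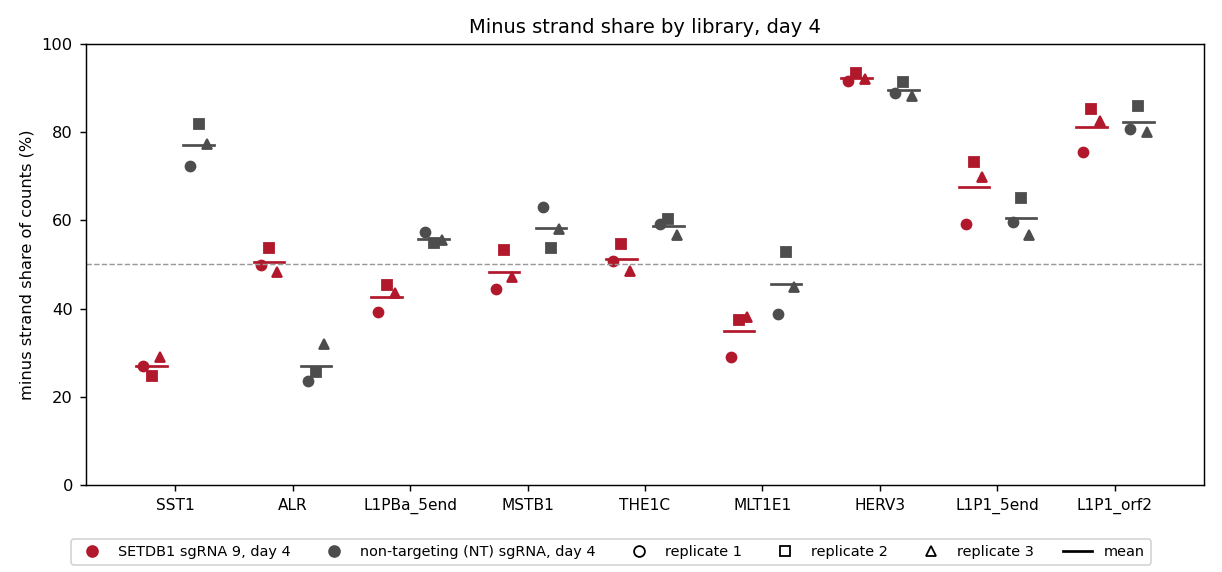
Minus strand share (percent of an element's counts) per library at day 4, with SETDB1 sgRNA 9 left of non-targeting (NT), a line at each mean and a dashed line at 50%, for the 5 called elements and MLT1E1, HERV3, L1P1_5end and L1P1_orf2. SST1 lies between 24.8% and 29.0% with SETDB1 sgRNA 9 and between 72.3% and 81.8% with the non-targeting sgRNA, and ALR changes in the opposite direction.

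Minus strand shares were also taken over whole classes, in a comparison made after the values were seen. The MaLR and ERVL share, which THE1C and MSTB1 dominate and which therefore largely repeats their values, was 50.3%, 54.5% and 48.9% with SETDB1 sgRNA 9, against 59.7%, 59.0% and 57.4% with the non-targeting sgRNA. The remaining LTR and MER elements were at 73.3%, 64.2% and 56.0% with SETDB1 sgRNA 9, against 84.6%, 82.1% and 80.5% with the non-targeting sgRNA. They include LTR60, counted almost only on the plus strand, with 115 plus strand counts summed over SETDB1 libraries against 33. The class value therefore depends in part on that element. Satellites were at 34.8%, 37.8% and 37.8% with SETDB1 sgRNA 9, against 45.3%, 54.5% and 45.9% with the non-targeting sgRNA. The satellite value pools SST1 and ALR, which held most of its counts and changed in opposite directions. Mean shares with SETDB1 sgRNA 9 and the non-targeting sgRNA were 26.9% and 77.1% for SST1, and 50.6% and 27.0% for ALR. Unlike these 3 classes, HERV3 and LTR4 together had a higher share with SETDB1 sgRNA 9, at 92.8%, 94.98% and 93.8%, against 91.2%, 92.1% and 90.0% with the non-targeting sgRNA. These 4 of 9 classes did not overlap between the arms (two-sided exact permutation p = 0.1 each, adjusted p = 0.225 over 9 classes). With 3 against 3 libraries this p cannot go below 0.1, so no class could have passed the threshold. L1 3′ ends, 5′ ends and ORF2 overlapped, at 66.9% ± 3.0, 64.7% ± 7.0 and 81.1% ± 5.0 with SETDB1 sgRNA 9 and 66.0% ± 1.7, 61.2% ± 3.6 and 82.3% ± 3.2 in the non-targeting libraries (SD, n = 3 each). In the whole table it was 66.2%, 74.6% and 72.1% with SETDB1 sgRNA 9, against 69.7%, 73.0% and 68.8% with the non-targeting sgRNA, with no separation of the arms.

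Elements were then counted that were higher on both of their strands. Relative to the table, 1 of 31 elements (ALR) was called higher on both strands and 1 lower (HUERS-P3b). With no scaling, 11 of the 31 (35.5%) were called higher on both strands and 0 lower in edgeR. These were ALR, SST1, HERV3, HERVP71A, L1P1_orf2, L1MA8_3end and the 5′ ends of L1P1, L1PA10, L1PA12, L1PBa and L1PBa1. In counts, 15 of 31 elements (48.4%) were higher on both strands in every SETDB1 library than in any non-targeting library. The elements in both sets are read against table totals that were themselves 1.65 times higher in the SETDB1 arm. With the strands added, 13 of 42 elements were called (31%), 6 higher (14.3%) and 7 lower (16.7%), around a median of -0.14. The higher ones were SST1 (1.76 ± 0.20), ALR (1.46 ± 0.20), LTR4 (0.98 ± 0.22), LTR60 (0.94 ± 0.29), HERV3 (0.68 ± 0.16) and L1PBa_5end (0.38 ± 0.11; log2, SE). The lower ones were MER34C (-0.89), LTR26 (-0.81), HUERS-P3b (-0.77), THE1C (-0.36), MSTB1 (-0.34), L1PA12_3end (-0.30) and L1PA5_3end (-0.29). A fit on the 6 day 4 libraries alone had a median of 0.09 and called 11 higher and 1 lower. The higher and lower counts were 10 and 2 without SETDB1 replicate 1, 10 and 1 without SETDB1 replicate 3, and 11 and 4 without non-targeting replicate 2. The lower count alone moved to 11 without SETDB1 replicate 2 and to 2 without non-targeting replicate 3. Of the higher elements, LTR60 (0.79) and L1PBa_5end (0.38) were lost without non-targeting replicate 1. Of the lower ones, HUERS-P3b passed with any single library left out and was lost without scaling (-0.02). The other 6 were each lost without 2 or more of the 6 libraries, with values as near 0 as -0.08 for L1PA5_3end (without SETDB1 replicate 1), -0.09 for L1PA12_3end (without SETDB1 replicate 3), and -0.13 for MSTB1 and -0.16 for THE1C (without non-targeting replicate 2). LTR26 was at -0.53 and MER34C at -0.57 without SETDB1 replicate 3.

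Of the 90 features 20 had too few counts to be tested. They held both strands of CR1_Mam, L1M3e_5end, LTR55, LTR81C, MER101B and SATR2, the plus strands of L1MDb_5end, LTR26, LTR4 and MER34C, and the minus strands of HERV-Fc1, HERVL18, LTR60 and CER. None of these features exceeded 13 counts in a day 4 library, and they summed to 168 counts in SETDB1 libraries and 106 in non-targeting libraries. CR1_Mam plus strand, HERV-Fc1 minus strand, LTR55 minus strand and both strands of LTR81C were at 0 in all 6 libraries.

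The day 4 difference was set against that of day 7 in the same fit, and 4 of 70 features differed (5.71%), 2 with a higher value at day 4 (2.86%) and 2 with a lower one (2.86%), and 17 at an unadjusted p under 0.05. HERV3 minus strand had a log2 change of 0.84 at day 4 and 2.35 at day 7, a difference of -1.50 ± 0.21 (SE; edgeR adjusted p = 1.76e-06). LTR4 minus strand had 1.13 at day 4 and 2.48 at day 7 (-1.35 ± 0.26; edgeR adjusted p = 0.000387). ALR minus strand ran the other way, with 2.49 at day 4 and 1.19 at day 7 (1.30 ± 0.30; edgeR adjusted p = 0.00326). L1PA12_3end minus strand had -0.16 at day 4 and -0.80 at day 7 (0.63 ± 0.17; edgeR adjusted p = 0.0125). SST1 plus strand, at 3.58 and 4.23, was outside the calls (difference -0.65 ± 0.30; edgeR adjusted p = 0.16). With a day 4 library left out, the higher count became 5 without SETDB1 replicate 1 or non-targeting replicate 2 and 4 without non-targeting replicate 1, and the lower count became 4 without SETDB1 replicate 1. With a day 7 library left out, the lower count became 4 without SETDB1 replicate 1, and the higher count became 1 without SETDB1 replicate 2 or non-targeting replicate 1, where L1PA12_3end was lost (0.59 in both).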

How the data were processed

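The deposited tables, with a sheet for each day, hold raw counts for each strand of a repeat element. CASAVA 1.8, BWA and HTSeq stand in the submitters' processing notes, with no roles. The genome build, the repeat models, the counting of reads with several matches, the choice of elements and the meaning of plus and minus were not given in the sources used here. Counts of related elements could be split between them. Element lengths are not given, so levels of different elements were not compared. Per the labels' protocols, 100 ng of total RNA entered each stranded library. Groups follow the titles, while the design text also names SETDB1 sgRNA 6. The labels do not state separate cultures, so p-values measure the spread between samples, which may be technical. Replicate pairs at day 4 differed by more than counting error (chi-square per degree of freedom 1.75 to 15.4).

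In edgeR 4.0.16 (R 4.3.3), filterByExpr (minimum count 10, minimum total 15) kept 70 of 90 features, and those left out held 0.121% of counts. All 12 libraries, in 4 groups, entered a quasi-likelihood fit (residual degrees of freedom 8, biological variation 11.4% as a coefficient), with table totals as library sizes and TMM factors, and the standard error of a log2 change was taken from its F statistic. Adjusted p-values are Benjamini-Hochberg over all features tested, with a threshold of 0.05. Minus strand share was tested with a library block and strand by group terms over 39 elements, and single values by exact permutation (scipy 1.17.1). The fits were tested on simulated data. limma 3.58.1 and DESeq2 1.42.0 served as alternatives, with other scalings, filters, a replicate block and single libraries left out. The floor for a count of 0 is 3 counts, for counting error only. Named with values were all called features and the most abundant feature of each class, and others as counts or examples. The elements, classes and tests were chosen with earlier results of these data known.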

Additional observations from a re-analysis of the deposited data

Results flagged for a closer look

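For 4 features the effect of SETDB1 sgRNA 9 at day 4 differed from that at day 7 by an edgeR interaction test, given as the log2 change at day 4 minus that at day 7. The difference was -1.50 for HERV3 minus strand, where normalised counts averaged 12970 ± 1883 and 7238 ± 1599 CPM in SETDB1 and non-targeting libraries at day 4 and 36426 ± 4468 and 7157 ± 228 CPM at day 7 (SD, n = 3 each). It was -1.35 for LTR4 minus strand, with 4149 ± 1028 and 1897 ± 358 CPM at day 4 and 12562 ± 1154 and 2254 ± 476 CPM at day 7, in the same order. It was 1.30 for ALR minus strand, with 4329 ± 676 and 773 ± 183 CPM at day 4 and 2152 ± 438 and 948 ± 89 CPM at day 7. It was 0.63 for L1PA12_3end minus strand, with 34391 ± 2449 and 38465 ± 3135 CPM at day 4 and 29239 ± 2541 and 50730 ± 2885 CPM at day 7. The call for L1PA12_3end was lost without scaling, without SETDB1 day 7 replicate 2 and without non-targeting day 7 replicate 1 (0.64, 0.59 and 0.59), while the other 3 held under every alternative run.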

How the results depend on the processing

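Of the 11 higher features at day 4, 7 were called under every alternative that tested them (SST1 and LTR60 plus strands, both strands of ALR, HERV3 and LTR4 minus strands, and L1PBa_5end plus strand). LTR60 plus strand was not tested at a minimum count of 50 and so had 14 alternatives, against 15 for the others. Of the 6 lower features 0 were called under every alternative, and all were lost without scaling. That setting moved the median log2 change to 0.65, against 0.04 with TMM, and gave 35 higher and 0 lower features, 20 higher and 0 lower summed elements, and 1 higher interaction call. Of the 70 tested features 64 then lay above 0. Among the called and the most abundant features, the sign turned above 0 for the minus strands of HERVK (0.45), HERVP71A (0.59), HUERS-P3b (0.0261), L1PA5_3end (0.50), LTR23-int (0.0925), MSTB1 (0.14) and THE1C (0.17). Among the called summed elements it turned for L1PA12_3end (0.43), L1PA5_3end (0.45), MSTB1 (0.42) and THE1C (0.38). HERVP71A minus strand was also above 0 in the day 4 libraries alone (0.0058), with DESeq2 size factors (0.0033) and in DESeq2's Wald test (0.0036), and ran between -0.143 and 0.0721 with a library left out. A minimum count of 50 gave 7 higher features, and single libraries left out gave 7 to 12 higher and 3 to 7 lower, with 7 higher and 3 lower without SETDB1 replicate 3 and 7 higher without non-targeting replicate 3. Summed elements numbered 11 higher and 1 lower in the day 4 libraries alone. Lower summed elements numbered 3 with DESeq2 size factors or its Wald test, 1 with L1P1_orf2 left out and 2 at a minimum count of 50. Single libraries left out gave 4 to 11 higher and 1 to 11 lower summed elements. Minus strand share had 2 lower elements with limma, 2 higher at a minimum of 50 counts per group, and 1 to 3 higher and 2 to 5 lower with a library left out. Interaction calls were 7 lower with table totals, and 6 higher with DESeq2 size factors, 8 with its Wald test, 5 with L1P1_orf2 left out, 6 with no filter and 4 at a minimum count of 50; single libraries left out gave 1 to 5 higher and 2 to 4 lower. The causes were not tested.

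Correlations of same-numbered deviations between the day 4 arms were 0.127, -0.013 and -0.135. Differently numbered ones ran between -0.152 and 0.144. Pairing by replicate number was therefore not seen, but 3 libraries in each arm cannot exclude it. With a replicate block there were 11 higher and 6 lower features, 5 higher and 4 lower summed elements (L1PBa_5end was lost, at 0.38), 2 higher and 5 lower minus strand shares, and 2 higher and 2 lower interaction calls.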
